A study of Mus musculus with 12 samples.

Results

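The 10 genes described here are ones that cells switch on when oxygen is short, followed across 4 kinds of mouse sample: Egln1, Egln3, Pdk1, Bnip3, P4ha1, P4ha2, Car9, Adm, Ndrg1 and Ankrd37. They were picked by symbol, 10 of the 52550 genes in the count table, and each matched 1 Ensembl entry. All 12 libraries came from wild-type animals, with 3 biologically independent replicates in each group. M scaffold was primary cells of the intestinal muscle layers kept for 28 days on an electrospun gelatin scaffold, in M medium, a differentiation medium that lists no serum. It held N2 and B27 supplements, 1 mM N-acetylcysteine (an antioxidant), 100 ng/mL Noggin (a BMP antagonist), 1 µg/mL R-spondin1 (a Wnt agonist) and 10 µM Y27632. M plate was the same cells in the same M medium on a well plate. P plate was the cells in proliferation medium, DMEM with 10% FBS, on a well plate, also for 28 days. Strips were native intestinal muscle, included as the positive control, although their labels also carry the day and the cultured-cell source. M plate and P plate differ in base medium, serum and all added factors at once, so these cannot be told apart. The labels give neither the oxygen tension nor the age or strain of the mice.

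In well-oxygenated cells, prolyl hydroxylases mark the alpha subunits of the hypoxia-inducible factor (HIF) and the von Hippel-Lindau protein sends them for degradation. When oxygen falls the hydroxylases slow, HIF alpha accumulates without any need for more of its mRNA, pairs with ARNT and binds a short core, ACGTG or GCGTG, in its target genes. The targets restrain oxygen use, remove mitochondria, manage acid, modify collagen and signal to vessels. Many of them also answer to other inputs, among them growth factors and iron supply.

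Between the cultures, most called differences lay between M plate and P plate: Egln3, Bnip3, P4ha1 and Pdk1 were lower in M plate. These calls depended on single libraries, with 0, 1 and 0 of the 10 genes called without M plate replicates 1, 2 and 3. M scaffold and P plate also differ in medium, and 0 of the 10 genes were called between them. M scaffold was divided: its replicate 3 was the highest of the group for 9 of the 10 genes. Against strips, Adm, Ndrg1, P4ha1 and P4ha2 were higher in all 3 cultures, whereas Egln3 was not called higher in any.

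The promoters of 6 of the genes are shown as examples. They include Ankrd37, which was not called in any comparison, and leave out P4ha2, which was called against strips in all 3 cultures. The 6 were picked partly because the cores recognised by HIF can be seen in them, so the presence of cores in these 6 is not a result. Of the 10 genes, 9 matched the RefSeq promoter table for GRCm38.p6, giving 10 windows of 300 bases, since Pdk1 has more than 1 start site. Each line below holds the 250 bases before the start site, 5′ to 3′ on the strand of the gene, and capitals mark ACGTG or GCGTG, or their reverse complements CACGT and CACGC. Bnip3 lies at chr7:138909507-138909756 on the minus strand, Ankrd37 at chr8:45999851-46000100 on the minus strand, Egln3 at chr12:54203875-54204124 on the minus strand, P4ha1 at chr10:59323046-59323295 on the plus strand, Pdk1 at chr2:71872974-71873223 on the plus strand and Adm at chr7:110627407-110627656 on the plus strand.
Bnip3: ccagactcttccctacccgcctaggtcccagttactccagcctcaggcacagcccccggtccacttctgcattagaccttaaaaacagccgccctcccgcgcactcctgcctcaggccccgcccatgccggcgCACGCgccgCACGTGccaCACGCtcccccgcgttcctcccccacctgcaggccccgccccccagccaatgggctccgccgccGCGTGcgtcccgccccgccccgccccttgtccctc
Ankrd37: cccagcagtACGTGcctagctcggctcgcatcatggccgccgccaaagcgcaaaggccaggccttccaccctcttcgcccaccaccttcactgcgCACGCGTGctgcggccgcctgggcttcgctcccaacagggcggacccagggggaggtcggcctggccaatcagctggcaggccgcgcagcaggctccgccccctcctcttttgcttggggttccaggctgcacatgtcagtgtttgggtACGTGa
Egln3: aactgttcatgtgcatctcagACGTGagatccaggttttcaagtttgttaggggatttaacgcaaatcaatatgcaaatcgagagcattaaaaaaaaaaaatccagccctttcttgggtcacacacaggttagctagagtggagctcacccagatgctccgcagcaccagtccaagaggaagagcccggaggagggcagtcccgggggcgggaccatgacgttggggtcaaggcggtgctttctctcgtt
P4ha1: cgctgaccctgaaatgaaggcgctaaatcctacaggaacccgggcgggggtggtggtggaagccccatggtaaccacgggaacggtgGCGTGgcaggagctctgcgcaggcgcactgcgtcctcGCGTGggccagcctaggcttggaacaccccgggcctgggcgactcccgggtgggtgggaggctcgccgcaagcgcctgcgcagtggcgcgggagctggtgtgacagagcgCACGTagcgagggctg
Pdk1: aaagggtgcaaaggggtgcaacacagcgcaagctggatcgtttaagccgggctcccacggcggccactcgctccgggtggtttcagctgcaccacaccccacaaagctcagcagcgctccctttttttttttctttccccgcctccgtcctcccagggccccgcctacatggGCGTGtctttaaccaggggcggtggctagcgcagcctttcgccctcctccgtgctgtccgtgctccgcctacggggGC
Adm: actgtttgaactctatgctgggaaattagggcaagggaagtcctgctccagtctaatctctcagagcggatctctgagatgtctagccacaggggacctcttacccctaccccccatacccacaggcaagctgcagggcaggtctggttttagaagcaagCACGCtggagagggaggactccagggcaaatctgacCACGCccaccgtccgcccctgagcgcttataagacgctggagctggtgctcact
The Bnip3 window holds a palindrome that counts as ACGTG on both strands, and the middle Ankrd37 run is a pair of overlapping GCGTG copies on opposite strands. The last capitals of Pdk1 begin a GCGTG that runs past the start site. ACGTG on either strand was present in 7 of the 10 windows (70%), against 6447 of all 32851 windows (19.6%). Either core was present in 9 of 10 windows (90%), against 43.8% of all windows. The windows of these genes also had a higher GC content, with a median of 67.5% against 52.7%, and its part in these shares was not tested. Adm had GCGTG only, on the minus strand, at positions -90 and -54 from its start. The matches describe letters in these windows and not binding.

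RNA was measured as whole-number read counts per gene. Levels are given as CPM, the count scaled to a common library size after adjustment by trimmed mean of M values (TMM). All 10 genes passed the low-count filter, which left 17700 genes. A gene was called higher or lower when edgeR's quasi-likelihood F test over all 12 libraries gave a Benjamini-Hochberg adjusted p under 0.05 over those 17700 genes. Signed values given with ± are log2 fold changes and their SE, for the first-named group over the other. Each SE was derived from the test, as the absolute log2 fold change over the square root of the F statistic. Library totals ranged from 21396485 in strips replicate 2 to 116643512 counts in M scaffold replicate 3. In bulk RNA, fewer cells of a type and less RNA per cell cannot be told apart, and the makeup of the groups differed. The summed level of 10 smooth muscle markers, all detected in every group, was 5191 to 14522 CPM in M scaffold, 3965 to 6697 CPM in M plate, 5940.4 to 11590.4 CPM in P plate and 40904 to 43466 CPM in strips. All 10 macrophage markers were higher in P plate and in M plate than in strips, and 7 of 8 endothelium markers were higher in M plate than in P plate. The part of these differences in the results was not tested.

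Genes were compared with each other per kilobase of exon, with all annotated exons of a gene merged. That length can exceed the length of the transcripts expressed, so the order of the genes is approximate. Ndrg1 had the highest mean level of the 10 in M scaffold (106 CPM per kb), Adm in M plate (131 CPM per kb), P4ha1 in P plate (123 CPM per kb) and Egln3 in strips (69.5 CPM per kb). Ankrd37 was lowest in every group, at 4.61 CPM per kb in M scaffold, 0.601 in M plate, 3.98 in P plate and 0.938 in strips. By single libraries Egln3 led in all 3 strips libraries, but the leading gene varied within each culture. Ndrg1 led in M scaffold replicates 1 and 3 and Adm in replicate 2, at 63.8, 189 and 101 CPM per kb. In M plate Ndrg1 led in replicate 1 (91.2 CPM per kb) and Adm in replicates 2 and 3, and in P plate P4ha1 led in replicates 1 and 3 and Ndrg1 in replicate 2 (158 CPM per kb).

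**Figure D1:**
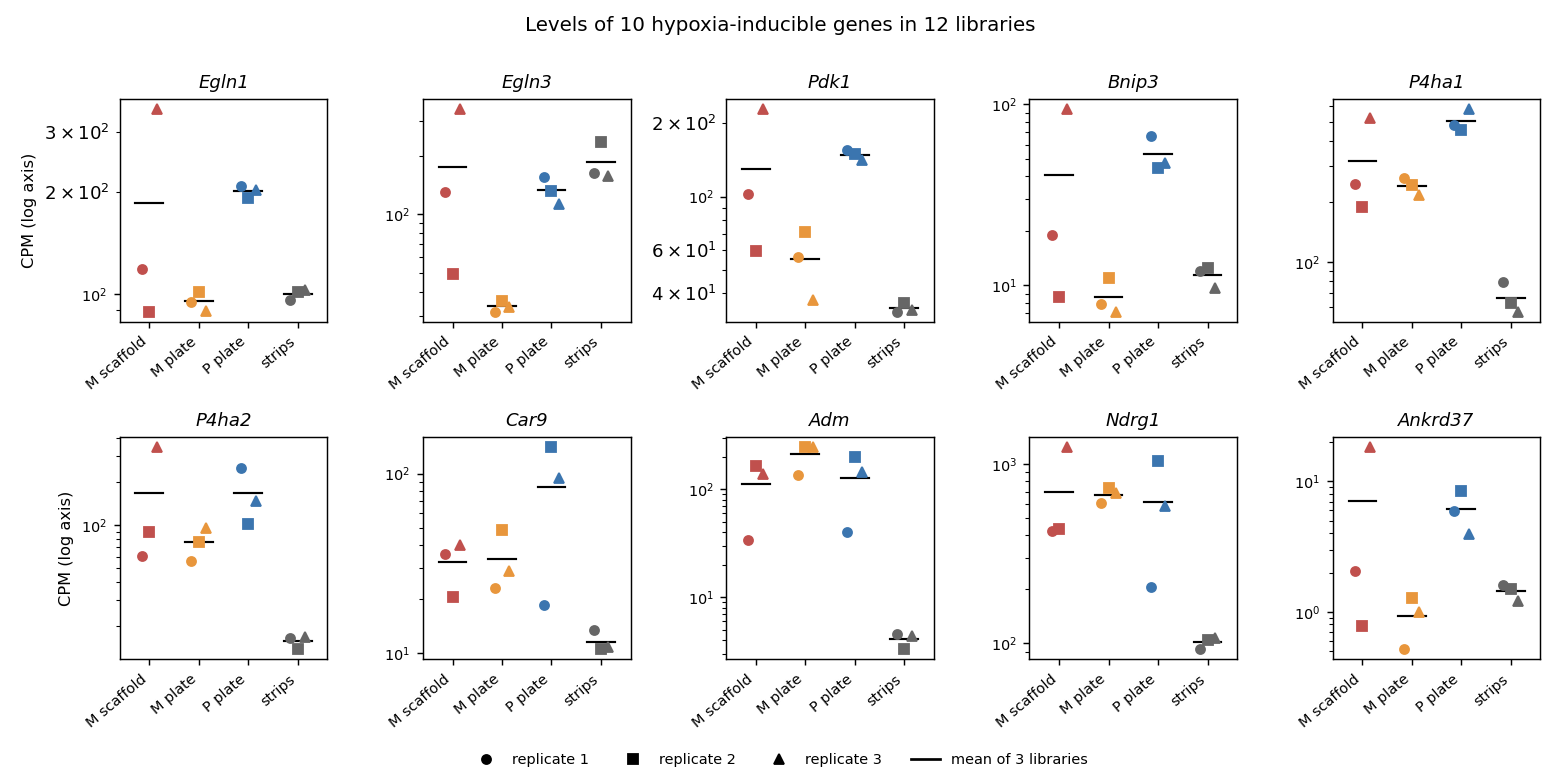
Level of each of the 10 genes in every library, in CPM on a log axis that does not start at 0, with 1 panel per gene. Symbols are replicates 1, 2 and 3 and lines are means of 3 libraries; the triangle of M scaffold (replicate 3) is the highest of its group in 9 of 10 panels, Adm being the exception.

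Egln1 and Egln3 encode the prolyl hydroxylases that both limit HIF and are induced by it. Egln1 (ENSMUSG00000031987, chr8:124908587-124949324, minus strand) had 119, 88.8 and 350.4 CPM in M scaffold, 95.2, 102 and 89.7 in M plate, 209, 193 and 203 in P plate, and 96.0, 102 and 103 in strips (replicates 1, 2 and 3 in this and the next such sentences; gene coordinates are on GRCm38). P plate lay above M plate and strips in every library, while M scaffold overlapped all the others. P plate was 1.00 ± 0.40 (log2 fold change ± SE) above strips (adjusted p = 0.0459), a call that was lost with library totals only (adjusted p = 0.123), with size factors of the DESeq2 kind (0.0506) and without any 1 library of the pair (0.074 to 0.116). M plate against P plate gave -1.07 ± 0.40 and missed the threshold (adjusted p = 0.0723, with 0.00195 to 0.168 over the alternatives).

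Egln3 was the only one of the 10 called between M scaffold and M plate. Egln3 (ENSMUSG00000035105, chr12:54178981-54203860, minus strand) had 129.5, 49.2 and 345 CPM in M scaffold, 31.5, 35.8 and 33.5 in M plate, 155, 131 and 113 in P plate, and 164, 235 and 157 in strips. Every M plate library lay below all 9 others, the nearest of which was M scaffold replicate 2. Egln3 averaged 175 ± 153 CPM in M scaffold, 33.6 ± 2.13 in M plate, 133 ± 21.3 in P plate and 185 ± 43.1 in strips (SD, n = 3 each). M plate was lower than P plate at -1.99 ± 0.53 (adjusted p = 0.0212, lost without any 1 M plate library, up to 0.0765). It was lower than strips at -2.46 ± 0.54 (adjusted p = 0.00308). M scaffold was higher than M plate by 2.38 ± 0.54 (adjusted p = 0.0456). The same-numbered libraries of M scaffold and M plate vary together, and with the replicate number as a block that call was lost (log2 fold change 2.24, adjusted p = 0.0814, or 1.98 and 0.0972 within the 6 libraries). It was also lost without M scaffold replicate 3 (1.41, adjusted p = 0.0819), without M scaffold replicate 1 (0.0622) and without any 1 M plate library (0.12 to 0.177), and over all alternatives its adjusted p ran from 0.000314 to 0.177. M scaffold and strips overlapped, with a log2 fold change of -0.081 ± 0.51, and without M scaffold replicate 3 the value was -1.04 (adjusted p = 0.0358).

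Pdk1 and Bnip3 act on mitochondria: Pdk1 is the kinase that shuts pyruvate out of the citric acid cycle, and Bnip3 is a receptor that targets mitochondria for autophagy. Pdk1 (ENSMUSG00000006494, chr2:71873224-71903858, plus strand) had 103, 59.4 and 228 CPM in M scaffold, 56.6, 71.4 and 37.5 in M plate, 155, 149 and 141 in P plate, and 33.5, 36.4 and 34.0 in strips. Every P plate library lay above every M plate library, and every culture library lay above every strips library. Pdk1 was lower in M plate than in P plate at -1.43 ± 0.40 (adjusted p = 0.0258, lost under 3 of 13 alternatives, up to 0.0901). It was higher than in strips by 2.10 ± 0.41 in P plate (adjusted p = 0.00119) and by 1.91 ± 0.41 in M scaffold (adjusted p = 0.00299), or by 1.23 without M scaffold replicate 3 (adjusted p = 0.00465). M plate against strips gave 0.67 ± 0.40 and was not called (adjusted p = 0.173).

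Bnip3 (ENSMUSG00000078566, chr7:138890836-138909519, minus strand) had 19.1, 8.66 and 94.0 CPM in M scaffold, 7.85, 10.98 and 7.14 in M plate, 67.3, 44.7 and 47.4 in P plate, and 11.99, 12.5 and 9.63 in strips. P plate stood clear of M plate and of strips, which overlapped each other, and M scaffold ran from within the M plate range to above every P plate library. Bnip3 averaged 40.6 ± 46.5 CPM in M scaffold, 8.66 ± 2.05 in M plate, 53.1 ± 12.3 in P plate and 11.4 ± 1.52 in strips (SD, n = 3 each). The fall in M plate against P plate was -2.62 ± 0.69 (adjusted p = 0.0203, lost without any 1 M plate library, up to 0.0765). The rise in P plate over strips was 2.23 ± 0.68 (adjusted p = 0.0152, or 0.0548 without strips replicate 3). M scaffold was called higher than strips (1.84 ± 0.67, adjusted p = 0.0404), but the libraries overlapped and without M scaffold replicate 3 the difference was 0.30 (adjusted p = 0.479). Of the 13 alternatives, 8 lost that call, with adjusted p from 0.0615 to 0.479.

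P4ha1 and P4ha2 encode the catalytic subunits of collagen prolyl 4-hydroxylase, which stabilises the collagen triple helix and itself needs oxygen. P4ha1 (ENSMUSG00000019916, chr10:59323296-59373304, plus strand) had 246, 188 and 522 CPM in M scaffold, 261, 242 and 216 in M plate, 479, 457 and 576 in P plate, and 79.4, 62.8 and 56.4 in strips. All 9 culture libraries lay above all strips libraries, and P plate lay above M plate without overlap. Its level was lower in M plate than in P plate at -1.07 ± 0.32 (adjusted p = 0.0323). That call was lost under 5 of 13 alternatives (adjusted p up to 0.0984), among them the replicate block within the 6 libraries (0.0501). Against strips it was higher by 2.93 ± 0.34 in P plate (adjusted p = 3.85e-05), by 1.86 ± 0.32 in M plate (adjusted p = 0.000818) and by 2.27 ± 0.33 in M scaffold (adjusted p = 0.000352).

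P4ha2 (ENSMUSG00000018906, chr11:54100095-54131665, plus strand) had 60.8, 89.1 and 349 CPM in M scaffold, 56.3, 76.7 and 94.8 in M plate, 249, 102 and 148 in P plate, and 16.6, 13.8 and 16.6 in strips. Again every culture library lay above every strips library, but the medium difference was not called (-1.13 ± 0.57 in M plate against P plate, adjusted p = 0.173), although no M plate library reached the lowest P plate library. Over strips P4ha2 was higher by 3.41 ± 0.62 in P plate (adjusted p = 0.000756), by 2.28 ± 0.59 in M plate (adjusted p = 0.00776) and by 3.41 ± 0.62 in M scaffold (adjusted p = 0.00122). These calls held under all 13 alternatives, with 2.26 in M scaffold without its replicate 3 (adjusted p = 0.000996).

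Car9 encodes a carbonic anhydrase at the cell surface that handles acid, and Adm encodes adrenomedullin, a peptide that dilates vessels and acts on endothelium. Car9 (ENSMUSG00000028463, chr4:43506966-43513729, plus strand) had 35.8, 20.6 and 40.2 CPM in M scaffold, 23.1, 48.5 and 28.6 in M plate, 18.5, 141 and 94.5 in P plate, and 13.4, 10.5 and 10.9 in strips. P plate was split, with replicate 1 below every library of M scaffold and of M plate and the others above them all. P plate was higher than strips by 2.86 ± 0.61 (adjusted p = 0.00203), or by 2.28 without P plate replicate 2. That call was lost with the replicate block within the 6 libraries (adjusted p = 0.0603). M plate was higher by 1.52 ± 0.58 (adjusted p = 0.0462, lost under 8 of 13 alternatives, with adjusted p up to 0.161). M scaffold gave a similar 1.47 ± 0.58 with every library above strips. It was not called (adjusted p = 0.0543), but was under 4 of 13 alternatives. Between cultures no call was made, but without P plate replicate 1 Car9 was lower in M plate than in P plate (-1.82, adjusted p = 0.00346) and lower in M scaffold than in P plate (-1.84, adjusted p = 0.00277); over all alternatives the adjusted p reached 0.352 and 0.52 in these comparisons.

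Adm showed the largest difference from strips of the 10 genes. Adm (ENSMUSG00000030790, chr7:110627661-110629820, plus strand) had 34.2, 164 and 138 CPM in M scaffold, 137, 249 and 249 in M plate, 40.5, 202 and 145 in P plate, and 4.57, 3.29 and 4.42 in strips. Every culture library was above strips, and the cultures overlapped each other. Adm was higher than in strips by 4.97 ± 0.71 in P plate (adjusted p = 0.000166), by 5.68 ± 0.74 in M plate (adjusted p = 0.000143) and by 4.76 ± 0.71 in M scaffold (adjusted p = 0.000402). Unlike the 4 genes that were lower in M plate, its mean was highest there, and the difference from P plate was not called (0.71 ± 0.60, adjusted p = 0.419). Each M scaffold library was below the M plate library of the same number. M scaffold against M plate gave -0.92 (adjusted p = 0.417), and -1.13 with the replicate block within the 6 libraries (adjusted p = 0.0741); over all alternatives the adjusted p ran up to 0.669.

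Ndrg1, a stress-responsive gene of the N-myc downstream regulated family (ENSMUSG00000005125, chr15:66929318-66969640, minus strand), had 421, 432 and 1245 CPM in M scaffold, 601, 729 and 689.8 in M plate, 207, 1039.7 and 585 in P plate, and 92.8, 105 and 108 in strips. All culture libraries lay above all strips libraries, and P plate alone spanned from the lowest culture value to the second highest. Its rise over strips was 2.59 ± 0.56 in P plate (adjusted p = 0.00227), 2.73 ± 0.56 in M plate (adjusted p = 0.00221) and 2.78 ± 0.56 in M scaffold (adjusted p = 0.00227). Without M scaffold replicate 3 the rise there was 2.08 (adjusted p = 0.00681), and without P plate replicate 2 that in P plate was 1.96 (adjusted p = 0.00805). Between M plate and P plate the difference was 0.14 ± 0.53 (adjusted p = 0.873).

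Ankrd37, an ankyrin repeat gene known as a hypoxia target, was the least abundant. Ankrd37 (ENSMUSG00000050914, chr8:45996902-46005707, minus strand) had 2.06, 0.776 and 18.5 CPM in M scaffold, 0.516, 1.27 and 0.990 in M plate, 5.96, 8.45 and 3.95 in P plate, and 1.61, 1.5003 and 1.22 in strips. Every P plate library lay above M plate and strips, but no comparison reached the threshold. M plate against P plate gave -2.72 ± 0.94 (adjusted p = 0.0584), and P plate against strips gave 2.09 ± 0.92 (adjusted p = 0.068). DESeq2 called both (adjusted p = 0.00752 and 0.0264), and over all alternatives the adjusted p ran from 0.00752 to 0.175 for the first and from 0.00357 to 0.163 for the second. M scaffold against strips gave 2.32 ± 0.92 (adjusted p = 0.0549). It was called under 4 of 13 alternatives, but was -0.013 without M scaffold replicate 3 (adjusted p = 0.986). DESeq2 also called this comparison (adjusted p = 0.0155) and M scaffold against M plate (adjusted p = 0.00982).

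Exons of 4 of the genes overlap genes on the other strand, and the library kit does not mark strand, so shared reads cannot be assigned. Ankrd37 shares 349 exon bases with Lrp2bp, which had at most 0.820 CPM in any library, and 57 with Ufsp2, which had 33.0 to 57.6 CPM. Ufsp2 had 37.1, 33.0 and 57.2 CPM in M scaffold, 35.8, 38.6 and 36.7 in M plate, 57.6, 46.9 and 53.9 in P plate, and 34.5, 33.1 and 33.1 in strips. It was thus highest in M scaffold replicate 3 and the P plate libraries, as Ankrd37 was, and the part of shared reads in this was not tested. Car9 shares 214 bases with Gm12454, which had 1.74 to 10.3 CPM, highest in strips where Car9 was lowest. The partners of Bnip3 and Ndrg1 (Gm45507, Gm17035 and Gm2895) had at most 0.338 CPM.

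**Figure D2:**
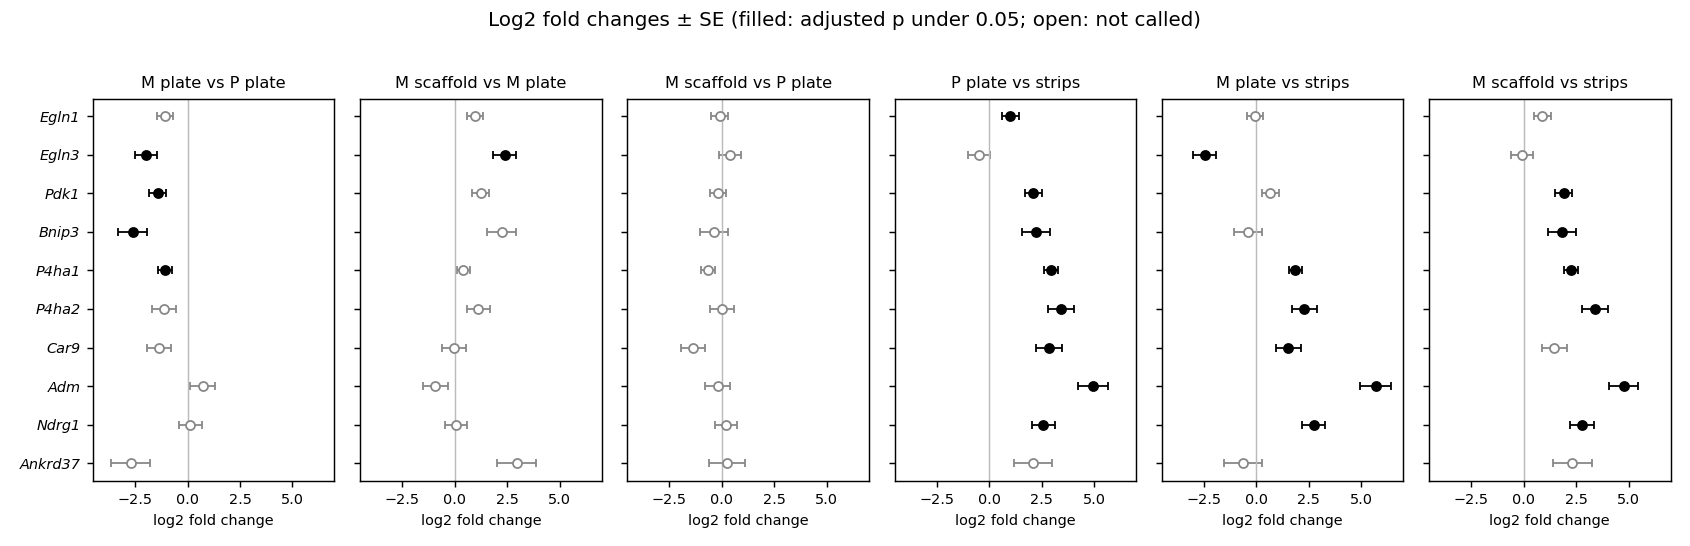
Log2 fold change ± SE of each gene in the 6 comparisons, the first-named group over the second. Filled points passed an adjusted p under 0.05; in M plate vs P plate the 4 filled points lie left of 0, and in the 3 panels against strips the filled points lie right of 0 apart from Egln3 in M plate.

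Counted over the list, M plate against P plate had 4 of the 10 genes lower and 0 higher, where 10.6% of all tested genes were lower and 14.3% higher. The median log2 fold change of the 10 was -1.24, against -0.0044 for all genes. In 7 of the 10 (the 4 called genes with Egln1, Ankrd37 and P4ha2) every M plate library lay below every P plate library, as did 19.3% of all genes, and in 0 every M plate library lay above, as did 22.6%. The 4 calls depended on single libraries: 0, 1 and 0 genes were called without M plate replicates 1, 2 and 3, and 5, 4 and 2 without P plate replicates 1, 2 and 3, while DESeq2 called 6, all lower. The 1 gene called without M plate replicate 2 was Pdk1 (adjusted p = 0.0404), and over the fits without an M plate library the adjusted p ran from 0.0637 to 0.0765 for Egln3, 0.0524 to 0.0765 for Bnip3, 0.0775 to 0.0984 for P4ha1 and 0.0404 to 0.0901 for Pdk1. Without P plate replicate 3, P4ha1 (0.0914) and Pdk1 (0.0539) were lost. The direction of those 7 genes was the same in each of these fits. P plate replicate 1 also differed in cell markers, with a macrophage marker sum of 21576 CPM against 4075 and 2285 CPM in the other P plate libraries, and a mesothelium marker sum of 391 against 3645 and 2924 CPM. Its interstitial cell of Cajal marker sum was 714 CPM against 118 and 127 CPM, and its epithelium marker sum 9.14 CPM against 66.5 and 94.6 CPM. The part of these differences was not tested. Leaving that library out kept 4 calls lower and added Car9.

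Between M scaffold and M plate, 1 of the 10 genes was higher and 0 lower, against 1.53% higher and 1.64% lower among all genes. The median was 1.05 for the 10, or 0.052 without M scaffold replicate 3 and 0.71 with the replicate block within the 6 libraries, and 0.0098 for all genes, and 5 of the 10 had an unadjusted p under 0.05. With the replicate number as a block 0 genes were called, with DESeq2 4 (Egln3, Bnip3, Ankrd37 and Pdk1, all higher), and without M scaffold replicate 3 0. No gene other than Egln3 had all M scaffold libraries above M plate, as 15.9% of all genes did, and none had all of them below, as 17.4% did. Of the enteric glia markers 4 of 7 were higher in M scaffold than in M plate, and of the enteric neuron markers 1 of 8, with 7 of 8 wholly above M plate. Of the interstitial cell of Cajal markers 1 of 5 was higher, and of the endothelium markers 1 of 8 was lower. Wholly below M plate lay 4 of 8 endothelium, 6 of 10 macrophage and 4 of 6 mesothelium markers. No smooth muscle, fibroblast, macrophage, mesothelium or epithelium marker was called. Their part in the values of the 10 genes was not tested.

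Between M scaffold and P plate, edgeR called 0 of the 10 genes, where 15.1% of all genes were higher and 9.61% lower in M scaffold. DESeq2 also called 0, and 1 gene (Car9) had an unadjusted p under 0.05. The libraries of all 10 overlapped, while 19% of all genes had every M scaffold library above P plate and 15% every one below. Without M scaffold replicate 3, 6 were lower: Egln1 at -0.95 (adjusted p = 0.000647), P4ha1 at -1.22 (0.00165), Bnip3 at -1.94 (0.00362), Ankrd37 at -2.11 (0.0169), Pdk1 at -0.87 (0.0454) and P4ha2 at -1.15 (0.046). Without P plate replicate 1, Car9 alone was called, and no alternative that kept both libraries called any of the 10. Without both of these libraries, a fit added after the values were seen, 6 were lower: Egln1, Car9, Bnip3, Ankrd37, Ndrg1 and P4ha1.

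The 3 comparisons with strips share the strips libraries, so they are given side by side and not as repeats of each other. P plate had 8 of the 10 genes higher and 0 lower (30.5% of all genes higher, 32.7% lower), with a median of 2.41 against -0.028 for all genes. M plate had 5 higher and 1 lower (26.5% higher, 28.4% lower), with a median of 1.10 against -0.0072. M scaffold had 6 higher and 0 lower (24.5% higher, 27.6% lower), with a median of 2.09 against -0.023, or 1.26 without M scaffold replicate 3. By libraries, 9 genes lay wholly above strips and 1 wholly below in P plate (31.7% and 36.1% of all genes), 6 above and 1 below in M plate (36.2% and 37%), and 6 above and 0 below in M scaffold (30.3% and 34.9%); Egln3 was the gene below in both cases. Scaling by library totals alone moved the median of all genes against strips to -0.30 in P plate, -0.23 in M plate and -0.26 in M scaffold; Egln1 in P plate, Car9 in M plate and Bnip3 in M scaffold then lost their calls, and Adm, Ndrg1, P4ha1 and P4ha2 kept theirs in all 3 cultures.

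M scaffold replicate 3 stood apart in its group. Its level was the highest of the group in 9 of 10 genes, with Adm as the exception, while 38.6% of all genes peaked there. Over the mean of the other M scaffold libraries, the ratio had a median of 3.15 and ran from 1.39 in Adm to 13.03 in Ankrd37, with 6.78 in Bnip3, 4.66 in P4ha2, 3.86 in Egln3 and 3.37 in Egln1. Over all genes, 6.94% were at least 2-fold above that mean in this library. Vegfa and Slc2a1, hypoxia targets outside the 10, were 6.45 and 6.68 times as high there as in the other M scaffold libraries. This library was also the deepest of the 12. Its endothelium marker sum was 197 CPM, against 1409 and 931 CPM in M scaffold replicates 1 and 2, and its macrophage marker sum was 4110.3 CPM, against 2293 and 1828 CPM, with all 8 endothelium and all 10 macrophage markers detected in the group. Its enteric glia marker sum was 628 CPM, against 282 and 341 CPM, and its enteric neuron marker sum was 541 CPM, against 393 and 356 CPM. Over the groups, the endothelium sum was 197 to 1409 CPM in M scaffold, 1457 to 1843 CPM in M plate, 20.5 to 28.5 CPM in P plate and 114 to 229 CPM in strips, and the macrophage sum was 1828 to 4110.3 CPM in M scaffold, 4044 to 4767 CPM in M plate, 2285 to 21576 CPM in P plate and 159 to 225 CPM in strips. Whether any of these moved the 10 genes was not tested.

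**Figure D3:**
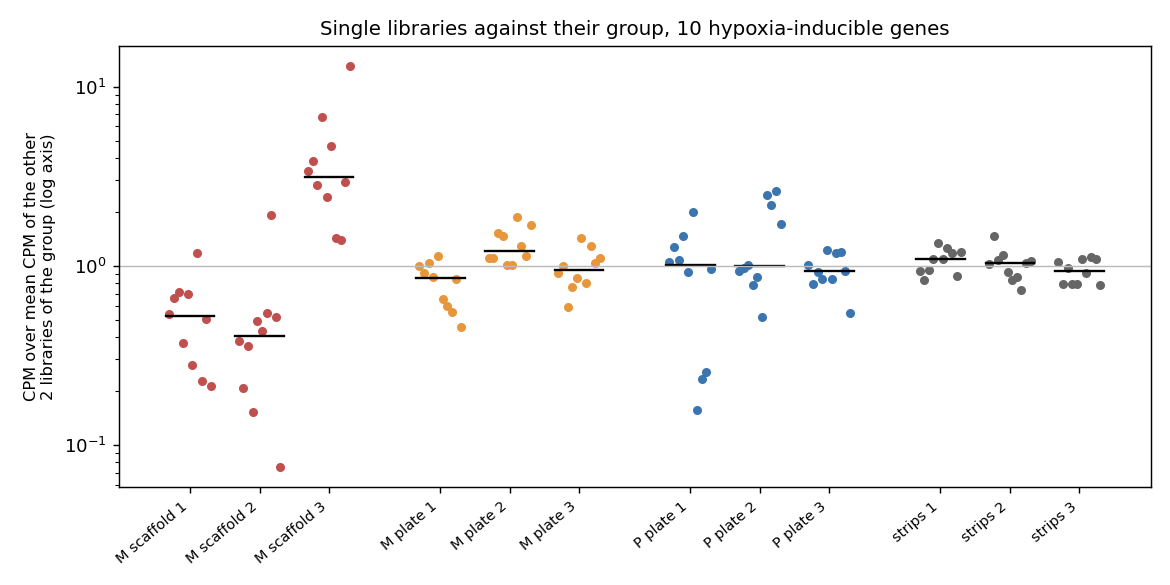
Each point is 1 of the 10 genes in 1 library, as its CPM over the mean CPM of the other 2 libraries of the group, on a log axis; lines are medians over the genes. M scaffold replicate 3 stands at a median of 3.15, and in P plate replicate 1 Car9, Adm and Ndrg1 are at 0.157, 0.234 and 0.255 while the other genes stay near or above 1.

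In P plate replicate 1 the list divided. Car9, Adm and Ndrg1 were at 0.157, 0.234 and 0.255 of the mean of the other P plate libraries. The other genes ran from 0.927 in P4ha1 to 1.99 in P4ha2. These 3 were also the genes whose M plate and P plate libraries overlapped. In the same library the mesothelium and epithelium marker sums were low, and the macrophage and interstitial cell of Cajal marker sums high. Their part in these levels was not tested.

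The components of the oxygen-sensing pathway were read from a list of 10 genes. Hif1a mRNA had 237, 414 and 266 CPM in M scaffold, 304, 423 and 377 in M plate, 1025, 332 and 596 in P plate, and 77.0, 86.6 and 80.6 in strips. Every culture library lay above strips, and P plate replicate 1 was the highest of all. It was higher than in strips by 3.00 ± 0.37 in P plate (adjusted p = 6.61e-05), by 2.18 ± 0.36 in M plate (adjusted p = 0.00062) and by 1.91 ± 0.36 in M scaffold (adjusted p = 0.00151). M scaffold was called lower than P plate (-1.09 ± 0.35, adjusted p = 0.0448), with overlapping libraries and with the call lost under 9 of 14 alternatives (adjusted p up to 0.382). M plate against P plate gave -0.82 ± 0.35 (adjusted p = 0.112).

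Epas1, which encodes the HIF alpha subunit prominent in endothelium, was higher than in strips by 1.48 ± 0.46 in M plate (adjusted p = 0.0182, lost without M plate replicate 3 or strips replicate 1 or 2, up to 0.069) and by 1.74 ± 0.46 in M scaffold (adjusted p = 0.00948), and gave 1.03 ± 0.45 in P plate (adjusted p = 0.0682). Arnt, the shared partner subunit, was higher in P plate (0.45), M plate (0.56) and M scaffold (0.51) than in strips, with SE of 0.074 to 0.075; library totals alone removed the call in P plate (adjusted p = 0.0714). Vhl was called only in M scaffold against strips (0.49 ± 0.16, adjusted p = 0.0299), and that call was lost under 8 of 13 alternatives, including without M scaffold replicate 2 or 3 (adjusted p up to 0.234). Hif3a, whose product can oppose the other alpha subunits, was higher in M plate than in P plate by 3.04 ± 0.35 (adjusted p = 0.000204) and higher in M scaffold than in P plate by 3.00 ± 0.35 (adjusted p = 0.000157). It had 6.54 to 9.74 CPM in M scaffold, 4.87 to 9.66 CPM in M plate, 0.574 to 1.26 CPM in P plate and 12.1 to 14.9 CPM in strips. Siah2, a ubiquitin ligase that acts on the hydroxylases, was lower in M plate than in P plate at -0.59 ± 0.10 (adjusted p = 0.00201). P4htm, a transmembrane prolyl hydroxylase, was lower than in strips in P plate (-1.83), M plate (-1.44) and M scaffold (-0.81), and higher in M scaffold than in P plate (1.02). Between M scaffold and M plate edgeR called 0 of the 10 components, with 1 at an unadjusted p under 0.05 and 1 called by DESeq2. Of all tested genes, edgeR called 1.53% higher and 1.64% lower there.

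**Figure D4:**
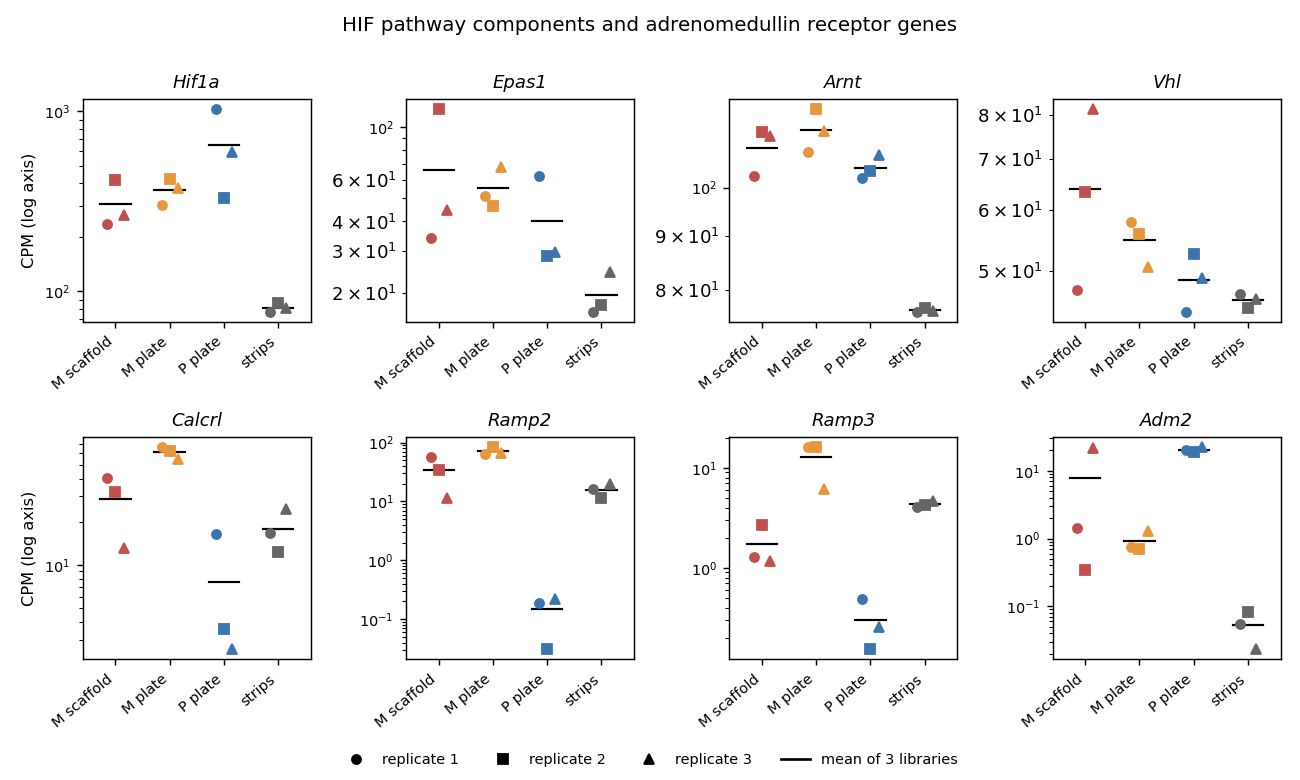
CPM on a log axis of 4 HIF pathway genes (Hif1a, Epas1, Arnt, Vhl), 3 adrenomedullin receptor genes (Calcrl, Ramp2, Ramp3) and the Adm paralog Adm2 in every library; symbols are replicates and lines are means of 3 libraries. Ramp2 stays at or under 0.223 CPM in P plate and at or above 11.5 CPM in every other library.

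Of 30 other hypoxia-inducible genes, 13 were lower and 1 higher (Zfp395, a zinc finger gene) in M plate than in P plate, with a median of -0.82. Over all tested genes 10.6% were lower and 14.3% higher, with a median of -0.0044. Without 1 library of the pair, 7 to 12 of the 30 were lower. The called genes that fell most were Vegfa, the vessel growth factor (-3.26 ± 0.68, adjusted p = 0.00638), Car12, another surface carbonic anhydrase (-3.20 ± 0.69, adjusted p = 0.00775), and Slc2a1, the glucose transporter (-3.16 ± 0.70, adjusted p = 0.00866). Vegfa had 28.9, 38.1 and 46.3 CPM in the M plate libraries, against 465, 262 and 362 CPM in the P plate libraries. Slc2a1 had 42.1, 59.1 and 46.0 CPM in the M plate libraries, against 644, 257 and 410.3 CPM in the P plate libraries, so both genes separated the media without overlap. Between M scaffold and M plate edgeR called 0 of the 30, DESeq2 called 5, and 12 had an unadjusted p under 0.05. Over all 17700 tested genes edgeR called 1.53% higher and 1.64% lower, DESeq2 called 2019, and 3798 had an unadjusted p under 0.05. M scaffold against P plate had 1 higher and 4 lower, where 15.1% of all genes were higher and 9.61% lower. Car12 (-2.47), Cited2 (-1.13) and Pfkfb3 (-1.11) were among the 4, and without M scaffold replicate 3 the counts were 1 higher and 15 lower. The libraries of Car12 and Pfkfb3 overlapped there, and each call was lost without M scaffold replicate 1, without M scaffold replicate 2 and without P plate replicate 3 (adjusted p over all alternatives up to 0.183 for Car12 and 0.211 for Pfkfb3).

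Against strips, 19 of the 30 were higher and 3 lower in P plate (30.5% of all tested genes higher, 32.7% lower). In M plate 10 were higher and 5 lower (26.5% and 28.4% of all genes), so the count higher was not far above the share of all genes. In M scaffold 15 were higher and 2 lower (24.5% and 27.6% of all genes), or 11 higher and 4 lower without M scaffold replicate 3. Without 1 library of the pair the M scaffold count ran from 9 (without strips replicate 3) to 19 higher, with 10 without strips replicate 1. In M plate, 5 to 7 were higher without 1 library of the pair. Slc2a1 was higher by 4.93 ± 0.76 in P plate and by 3.998 ± 0.73 in M scaffold. Tmem45a, a transmembrane protein gene, was higher by 4.21 ± 0.62 in P plate and by 3.19 ± 0.59 in M scaffold. Rab20, a small GTPase, was higher by 3.42 ± 0.32 in P plate and by 2.58 ± 0.31 in M plate. Car12 was lower at -5.89 ± 0.76 in M plate and at -5.16 ± 0.72 in M scaffold, with 0.341 to 1.86 CPM in M scaffold, 0.456 to 0.888 CPM in M plate, 1.61 to 10.7 CPM in P plate and 33.4 to 44.4 CPM in strips. Angptl4, a secreted lipase inhibitor, was lower in M plate at -3.91 ± 0.97. Vegfa was higher in P plate (3.39 ± 0.69, adjusted p = 0.0015) and was not called in M plate (0.12 ± 0.63) or M scaffold (1.53 ± 0.64).

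Paralogs of the 10 genes, 13 in all, were called in both directions. M plate against P plate had 2 higher and 2 lower, M scaffold against M plate 1 and 1, M scaffold against P plate 3 and 2, and P plate, M plate and M scaffold against strips 5 and 6, 3 and 6, and 2 and 5. Over all tested genes the shares higher and lower were, in the same order, 14.3% and 10.6%, 1.53% and 1.64%, and 15.1% and 9.61% between cultures. Against strips they were 30.5% and 32.7%, 26.5% and 28.4%, and 24.5% and 27.6%. The counts are given as description and not as a result about the paralogs. The 5 higher in P plate became 2 without P plate replicate 2, strips replicate 2 or strips replicate 3 and with library totals only, and 3 without P plate replicate 3 or strips replicate 1. The 3 higher in M plate became 1 without strips replicate 1 and 2 without any other library of the pair. Pdk4, a related kinase known for its response to fasting, was lower than in strips at -4.06 ± 0.33 in P plate, at -3.19 ± 0.31 in M plate and at -1.76 ± 0.29 in M scaffold, opposite in sign to Pdk1. Pdk4 was higher in M scaffold than in M plate by 1.44 ± 0.30 (adjusted p = 0.0361, or 0.0627 with the replicate block in all 12 libraries). P4ha3, another collagen hydroxylase subunit, was lower in M scaffold than in M plate at -1.07 ± 0.18 (adjusted p = 0.0205). Both calls were lost without any 1 M plate library (adjusted p over all alternatives up to 0.139 for Pdk4 and 0.0818 for P4ha3). Car2, a cytosolic carbonic anhydrase, was higher in M plate than in P plate by 2.95 ± 0.53 (adjusted p = 0.0027), higher in M scaffold than in P plate by 4.10 ± 0.54 (adjusted p = 0.000353), and lower in P plate than in strips at -5.65 ± 0.57 (adjusted p = 1.61e-05). Adm2, the closest relative of Adm, had 1.44, 0.341 and 21.4 CPM in M scaffold, 0.745, 0.710 and 1.29 CPM in M plate, with 20.1, 18.8 and 22.7 CPM in P plate, against 2 counts in each strips library. It was lower in M plate than in P plate at -4.47 ± 1.16 (adjusted p = 0.0189, lost without any 1 M plate library, up to 0.0756), a comparison in which Adm was not called. In M scaffold replicate 3 alone it was at the P plate level.

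Partners of the encoded proteins, 10 in all, were called in both directions. M plate against P plate had 5 of the 10 higher and 1 lower, M scaffold against M plate 1 and 2, M scaffold against P plate 5 and 2, and P plate, M plate and M scaffold against strips 2 and 7, 4 and 3, and 1 and 5. The shares of all tested genes were, in the same order, 14.3% and 10.6%, 1.53% and 1.64%, and 15.1% and 9.61% between cultures. Against strips these shares were 30.5% and 32.7%, 26.5% and 28.4%, and 24.5% and 27.6%. The 4 higher in M plate than in strips became 2 without M plate replicate 1 or 2, and the M scaffold counts ran from 0 to 2 higher and 3 to 4 lower without 1 library of the pair. Calcrl is the receptor and Ramp2 the accessory protein that makes it respond to adrenomedullin. Ramp2 had 57.9, 33.7 and 11.5 CPM in M scaffold, 64.8, 85.4 and 68.0 in M plate, 0.191, 0.0307 and 0.223 in P plate, and 16.2, 11.5 and 20.1 in strips. P plate was far below every other library, with 7, 1 and 7 counts. Ramp2 was higher in M plate than in P plate by 8.90 ± 0.74 (adjusted p = 4.25e-05) and in M scaffold than in P plate by 7.82 ± 0.72 (adjusted p = 4.23e-05). Calcrl was higher in M plate than in P plate by 3.01 ± 0.67 (adjusted p = 0.00889) and than in strips by 1.77 ± 0.64 (adjusted p = 0.0355, lost without any 1 library of the pair, up to 0.113). Between M plate and P plate, then, the receptor genes were called and Adm was not. The endothelium marker sums, 1457 to 1843 CPM over the M plate libraries against 20.5 to 28.5 CPM over those of P plate, moved the same way, and their part was not tested.

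Ramp3, another accessory protein, was higher in M plate than in P plate by 5.38 ± 0.56 and lower in M scaffold than in M plate at -2.91 ± 0.48 (adjusted p = 0.0194). Ramp1, which pairs Calcrl with a different peptide, was higher in M scaffold than in M plate by 1.44 ± 0.22 (adjusted p = 0.0141), and lower than in strips in P plate (-3.30), M plate (-3.17) and M scaffold (-1.73). Ackr3, a scavenger receptor for adrenomedullin, was lower in M scaffold than in M plate at -1.29 ± 0.18 (adjusted p = 0.0113) and higher in M scaffold than in P plate by 1.72 ± 0.19 (adjusted p = 0.000104). The calls of Ramp3, Ramp1 and Ackr3 between M scaffold and M plate held with the replicate block, while each was lost without at least 1 library, M plate replicate 2 in all 3.

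Across the 12 libraries the 10 genes were not equally alike. The correlation of each with the mean of the other 9, on standardised log2(CPM + 0.5), was 0.956 for Pdk1, 0.889 for P4ha1, 0.877 for Egln1, 0.853 for P4ha2, 0.846 for Bnip3, 0.825 for Ankrd37, 0.703 for Car9, 0.663 for Ndrg1, 0.523 for Adm and 0.146 for Egln3. Over the 9 culture libraries alone the order differed, with 0.946 for Ankrd37, 0.943 for Egln1, 0.889 for Bnip3, 0.868 for P4ha1, 0.863 for Pdk1, 0.794 for Egln3, 0.712 for P4ha2, 0.503 for Car9, 0.333 for Ndrg1 and -0.12 for Adm. The low value of Egln3 over 12 libraries thus rests on strips, where Egln3 was high and most of the others low. The libraries share groups and M scaffold replicate 3 is extreme, so these values describe the set and carry no test. Outside the list, the 8 abundant genes most like the mean of the 10 were Gpi1 (Pearson r = 0.992 over 12 libraries), Pfkl (0.978), Tpi1 (0.968), Apba3 (0.967), Slc16a3 (0.964), Pgam1 (0.957), Aldoa (0.957) and Ldha (0.957). Gpi1, Pfkl, Tpi1, Pgam1, Aldoa and Ldha encode enzymes of glycolysis and lactate production, Slc16a3 a lactate exporter and Apba3 an adaptor protein. Slc16a3 had 57.1, 15.8 and 289.6 CPM in M scaffold, 19.9, 38.5 and 25.1 in M plate, 283, 192 and 262 in P plate, and 9.30, 8.13 and 10.0 in strips. Ldha had 518, 351 and 1053 CPM in M scaffold, 282, 415 and 314 in M plate, 1107, 959 and 1212 in P plate, and 210.4, 219 and 216 in strips. As with most of the 10, M scaffold replicate 3 and the P plate libraries were high and the M plate libraries lower. The 8 genes were chosen for likeness over these same libraries, so this pattern follows from the choice.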

How the data were processed

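RNA was sequenced from 12 libraries, 3 per group, prepared with a TruSeq kit that does not mark strand. Whole-number read counts per Ensembl gene were deposited by the authors. Per the submitters' processing notes, STAR 2.6.0 and the GRCm38 (mm10) build were used; for the counting program, annotation and strand setting no source used here gives a statement. The labels mention technical replicates, but the deposited table has 1 count column per library, and how they were joined is not given. Of the table, 5 summary entries were left out; reads in no feature were 4.20% to 7.87% and ambiguous reads 3.12% to 3.87% per library. Gene names and exon lengths came from GENCODE M21, which matched 52403 of 52550 genes.

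Genes were kept by filterByExpr (17700 tested), scaled by TMM (factors 0.893 to 1.15) and tested with edgeR 4.0.16 in R 4.3.3: 1 quasi-likelihood fit over all 12 libraries with 8 residual degrees of freedom, Benjamini-Hochberg adjustment over all tested genes and a threshold of 0.05. Alternatives were DESeq2 1.42.0, its kind of size factors, library totals only, no filter, the 6 compared libraries only, a replicate block and leaving out each library. Scripts were tested on simulated data. The 10 genes and every other list were chosen with earlier results of these data known. From other lists, up to 3 called genes with the largest change per comparison are named, with Hif1a, Epas1, Arnt, Vhl, Vegfa, Slc2a1, Calcrl and Ramp2 always; a few further genes were chosen after their values were seen. Likeness was computed on log2(CPM + 0.5) over genes reaching 20 CPM in at least 1 group mean, with predicted genes (Gm and Rik names) left out.

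Same-numbered M scaffold and M plate libraries deviated together (r = 0.196 to 0.304 over genes, all 3 pairs), so their numbers were taken to pair them. The other group pairs gave -0.103 to 0.127. The main fit held no replicate block, so its calls left the pairing of M scaffold and M plate out. The block was fitted as an alternative. A floor of 3 counts equals 0.0270 to 0.125 CPM per library and covers counting error only. Replicates differed by more than counting noise (chi-square per gene 40.7 to 446).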

Additional observations from a re-analysis of the deposited data

How the results depend on the processing

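Of 790 log2 fold changes of the 10 genes recomputed under an alternative, 667 kept their direction and side of the threshold, 48 lost a call, 38 gained one in the same direction and 37 changed sign, 4 of which also gained a call. The cause was not tested. Genes called in M plate against P plate numbered 4400, and 2846 with the 6 compared libraries only. In M scaffold against M plate they numbered 562, 2019 with DESeq2 and 1068 with 6 libraries. In M scaffold against P plate they numbered 4375, and 1791 with 6 libraries. Members called in M scaffold against M plate numbered 1, 4 with DESeq2 and 0 with 6 libraries.

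With the replicate block within the 6 compared libraries the calls numbered 1300, 1718 and 915 in these 3 comparisons, and with the block in all 12 libraries 391 in M scaffold against M plate; both blocks left 0 members called there. The block turned Car9 (0.063) and Ndrg1 (-0.051, or -0.14 within 6 libraries) in M scaffold against M plate. In M scaffold against P plate it turned Ankrd37 (-0.27 or -1.03), P4ha2 (-0.24 or -0.31) and Egln3 (-0.037 within 6); 6 libraries without a block gave P4ha2 -0.0033.

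Leaving out 1 library, genes called ranged from 2630 to 5188 in M plate against P plate, with 0 to 5 members, and from 18 to 348 in M scaffold against M plate, with 0 to 3 members; in M scaffold against P plate 0 to 6 members were called. Log2 fold changes that changed sign ranged, for M plate against P plate, from -0.27 to 0.76 in Ndrg1. For M scaffold against M plate they ranged from -0.25 to 0.33 in Car9, -0.66 to 0.33 in Ndrg1, -0.14 to 0.70 in P4ha1 and -0.018 to 1.54 in P4ha2. For M scaffold against P plate they ranged from -0.95 to 0.25 in Egln1, -0.57 to 0.86 in Egln3, -1.94 to 0.12 in Bnip3, -0.77 to 0.28 in Adm, -2.11 to 0.78 in Ankrd37, -0.90 to 0.83 in Ndrg1, -1.15 to 0.44 in P4ha2 and -0.87 to 0.19 in Pdk1. For M scaffold against strips they ranged from -1.04 to 0.35 in Egln3 and -0.013 to 2.83 in Ankrd37. The lowest Adm and Ndrg1 values came without both M scaffold replicate 3 and P plate replicate 1, a fit added after seeing the data. Low counts limit the folds of Ramp2 in P plate (7, 1 and 7 counts) and Adm2 in strips (2 counts each).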
